A study of Homo sapiens with 12 samples.

Results

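The glycolysis and hypoxia response is described here through 37 genes in MDA-231-LM2 cells, lung-metastatic descendants of MDA-MB-231, an established line of human breast cancer. The genes were chosen by name: 17 glycolytic enzymes, 3 regulators of glycolytic flux, 3 transporters, HIF1A with 2 oxygen sensors, and 11 targets of the hypoxia response. Earlier results of these data were known at that choice, so shares of members set beside all features below are no test of the set. All 37 were found among the 21574 features of the deposited expression table, and all 37 passed the filter on low values, which kept 13071 features with at least 1 TPM in 3 or more libraries. TPM is a transcript abundance corrected for transcript length and scaled to a fixed total in each library.

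The study crossed the cell population, labelled Ctrl or TMEM216, with IGF1, absent or added. The 4 groups, called Ctrl, Ctrl+IGF1, TMEM216 and TMEM216+IGF1 below, had 3 libraries each, 12 in all, and every library came from the same parental line. What was done to TMEM216, a gene whose protein sits at the base of the primary cilium, is not stated, nor are the dose and duration of IGF1, insulin-like growth factor 1. Nothing says whether replicates were separate cultures, so p-values here reflect spread among the sequenced libraries only, and that spread may be technical. TMEM216 itself lay between 24.0 and 30.1 TPM in the 6 Ctrl libraries and between 163 and 249.6 TPM in the 6 TMEM216 libraries. The measured transcript was therefore higher in every library labelled TMEM216.

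Glycolysis converts glucose to pyruvate, and lactate dehydrogenase reduces the pyruvate to lactate, which leaves the cell through monocarboxylate transporters. When oxygen is low, prolyl hydroxylases stop marking HIF-1α for destruction, and the stabilised factor raises transcription of most glycolytic genes together with genes for pH control, angiogenesis, collagen hydroxylation and mitophagy. Growth factor signalling through PI3K and mTOR can raise HIF-1α and glycolytic genes in oxygenated cells as well, and many breast cancer cells keep a high glycolytic rate in air.

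Libraries correlated at 0.977 to 0.990 with each other on the log2(TPM + 1) scale. Scores on the leading principal component (22% of the variance) were highest in TMEM216 replicate 3 and TMEM216+IGF1 replicate 2, at 18.2 and 18.1. The 2 libraries with the lowest scores were Ctrl+IGF1 replicate 3, at -31.0, and TMEM216 replicate 1, at -19.4, the latter hardly farther out than the highest. The 87 cytosolic ribosomal protein genes took 16.9% and 14.6% of all TPM in these 2 libraries and 12.4% to 14.4% in the other 10. Several results below that rest on them are also given without 1 or both, and leaving out both was an alternative chosen after the data were seen. Markers of the line were high, with VIM at 6309 TPM and CD44 at 448 TPM over the 12 libraries. Luminal and other cell type markers were mixed. ESR1 averaged 0.0893 TPM and CDH1 0.0252 TPM, and the leukocyte marker PTPRC averaged 0.0202 TPM. KRT8 and KRT18 were at 553 and 949 TPM and CD68 at 191 TPM. The 5 fibroblast markers summed to 58.0 to 60.7 TPM in Ctrl, 49.2 to 58.1 in Ctrl+IGF1, 41.4 to 45.0 in TMEM216 and 45.9 to 47.0 in TMEM216+IGF1, nearly all of it COL1A1, and the defining markers DCN and LUM averaged 0.00836 and 0.00428 TPM. The 7 luminal markers summed to 1566 to 1652 TPM in Ctrl, 1601 to 1611 in Ctrl+IGF1, 1314 to 1631 in TMEM216 and 1338 to 1475 in TMEM216+IGF1. The 4 endothelial markers summed to 3.24 to 3.76 TPM, 2.00 to 2.71, 2.61 to 3.57 and 3.70 to 4.24 in the same order, with the defining marker CDH5 at 0.00762 TPM on average. Of the 16 marker genes tested, KRT8 and COL1A1 fell with TMEM216 averaged over IGF1, at log2 changes of -0.34 each (limma adjusted p = 0.000795 and 0.00323), and PECAM1 rose, at 0.38 (limma adjusted p = 0.0440). Their part in the results below was not tested. In bulk RNA, fewer cells of a kind and less RNA per cell cannot be told apart.

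Among the 37 genes, 5 were higher or lower with TMEM216 averaged over IGF1, where limma called 5.22% of all features tested at an adjusted p under 0.05. In the presence of IGF1 4 differed, where 1.61% of all features were called. CA12, which encodes a membrane carbonic anhydrase that helps tumour cells handle acid, rose in both comparisons. NDRG1, a stress and hypoxia-induced gene, also rose in both, and ADM, which encodes the vasodilator peptide adrenomedullin, fell in both. KDM3A, a histone demethylase gene under HIF control, rose with TMEM216 in the presence of IGF1. PFKFB3, which encodes the enzyme that makes the activator of phosphofructokinase, and LDHA, which encodes the muscle-type lactate dehydrogenase subunit, rose in the averaged comparison. For TMEM216 without IGF1, for IGF1 and for the interaction 0 members passed, where 0.0153% to 1.09% of all features were called. In these comparisons 3 to 9 members (8.11% to 24.3%) had an unadjusted p under 0.05, against 4.77% to 13.2% of all features. For TMEM216 without IGF1 the members' share, 10.8%, was below that of all features, 13.2%.

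The 37 genes spanned nearly 4 orders of magnitude in level, and the enzymes of the lower pathway led. Averaged over the 12 libraries, 7 genes lay over 1000 TPM. These were GAPDH at 9862 TPM, PKM at 3205, ENO1 at 2869, LDHA at 2557, LDHB at 1758, TPI1 at 1356 and ALDOA at 1249. Another 13 genes lay between 100 and 1000 TPM and 12 between 10 and 100 TPM. The 5 lowest were ALDOC at 9.06 TPM, PDK1 at 5.78, ANKRD37 at 4.73, EGLN3 at 2.27 and CA9 at 1.41. Relative spread over the 12 libraries was smallest for BNIP3, with a coefficient of variation of 5.33%, and largest for CA9 at 68.7%, CA12 at 28.6% and NDRG1 at 28.0%.

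**Figure D1:**
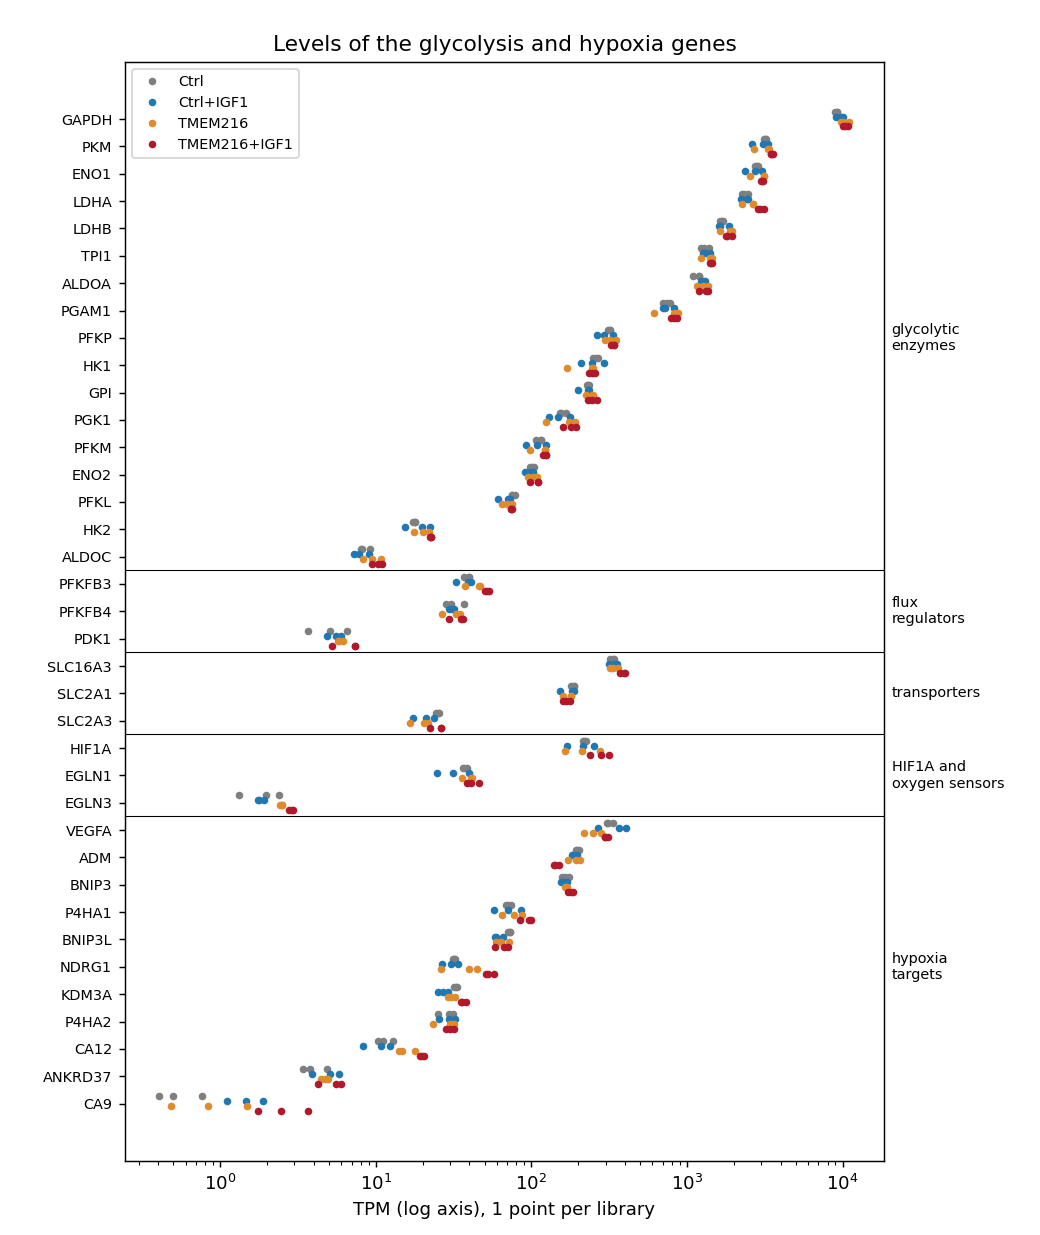
TPM on a log axis for each of the 37 genes (rows, grouped by role and ordered by mean level), with 1 point per library coloured by group. GAPDH lies highest, at 8881 to 11073 TPM, and CA9 lowest, at 0.407 to 3.69 TPM, and the points of most genes lie close together, whereas CA9, CA12 and NDRG1 spread most.

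The glycolytic enzymes took between 2.31% and 2.70% of all TPM in the 12 libraries. Summed, the 17 enzymes made up 2.36% ± 0.0326 of all TPM in Ctrl, 2.40% ± 0.0775 in Ctrl+IGF1, 2.54% ± 0.0758 in TMEM216 and 2.67% ± 0.0230 in TMEM216+IGF1 (SD, n = 3, as for all such values below). The 3 TMEM216+IGF1 libraries, at 2.66% to 2.70%, lay above the other 9, which spanned 2.31% to 2.60%. No test was made of this sum, which combines the chosen genes. GAPDH, the glyceraldehyde-3-phosphate dehydrogenase gene, alone took 0.908% ± 0.0170 of all TPM in Ctrl and 1.04% ± 0.0337 in TMEM216+IGF1.

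GAPDH read 9189, 9161 and 8881 TPM in Ctrl, 9792, 9100.0 and 10036 in Ctrl+IGF1, 11072, 10112 and 9699.5 in TMEM216 and 10429, 10102 and 10775 in TMEM216+IGF1. Without IGF1 the 3 TMEM216 libraries lay above the 3 Ctrl libraries, by 0.18 on the log2 scale (SE 0.066, limma adjusted p = 0.255), which did not pass. This difference was 0.06 under quantile normalization and 0.13 without TMEM216 replicate 1. The highest value of GAPDH was in TMEM216 replicate 1, a library in which most other enzymes lay below their Ctrl mean. GAPDH made up 45.1% of the enzyme sum in that library. In Ctrl+IGF1 replicate 3 it made up 43.4%, and elsewhere 37.0% to 40.5%.

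Hexokinase traps glucose in the cell as glucose 6-phosphate, and HK2 is its inducible form. HK2 averaged 17.8 ± 0.268 TPM in Ctrl, 19.2 ± 3.56 in Ctrl+IGF1, 20.0 ± 2.18 in TMEM216 and 22.6 ± 0.262 in TMEM216+IGF1. Its share of HK1 plus HK2 was 6.43% ± 0.293 in Ctrl, 7.15% ± 0.320 in Ctrl+IGF1, 8.39% ± 0.971 in TMEM216 and 8.46% ± 0.258 in TMEM216+IGF1. HK1, the constitutive form, thus supplied most of the hexokinase transcript in every library. Among the phosphofructokinase genes the platelet form PFKP supplied 61.8% to 64.6% of the 3-gene sum in all 12 libraries, with PFKM at 21.3% to 23.7% and PFKL at 12.8% to 15.8%. ENO2, the neuronal enolase gene, made up 2.95% to 3.91% of the ENO1 and ENO2 sum, and ALDOC 0.572% to 0.852% of the ALDOA and ALDOC sum. ENO3, which is not a member and averaged 40.0 TPM, was left out of the enolase share.

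Lactate dehydrogenase is a tetramer of LDHA and LDHB subunits, and the LDHA form favours lactate production. LDHA (ENSG00000134333) read 2269.9, 2455 and 2323 TPM in Ctrl, 2463, 2432 and 2212 in Ctrl+IGF1, 2245, 2671 and 2665 in TMEM216 and 2948, 3130.1 and 2869 in TMEM216+IGF1. The TMEM216+IGF1 libraries were the 3 highest of the 12, and TMEM216 replicate 1 lay among the Ctrl libraries. Averaged over IGF1, LDHA was higher with TMEM216 by 0.22 (SE 0.056, limma adjusted p = 0.0440), and 5 of the 6 TMEM216 libraries exceeded the highest Ctrl library. This call was lost in 13 of 18 alternatives, with adjusted p between 0.00538 and 0.121 over all 18. Among these were quantile normalization, no filter on low values, and the removal of any 1 library other than Ctrl+IGF1 replicate 2 or TMEM216 replicate 1, with log2 changes of 0.19 to 0.26 over the single removals. In the presence of IGF1 the difference was 0.33 (SE 0.079, limma adjusted p = 0.0622). LDHB made up 38.1% to 38.3% of the LDHA and LDHB sum in TMEM216+IGF1 and 39.8% to 43.4% in the other 9 libraries.

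PFKFB3 and PFKFB4 encode bifunctional enzymes that set fructose 2,6-bisphosphate, the activator of phosphofructokinase. PFKFB3 (ENSG00000170525) read 39.9, 36.8 and 40.0 TPM in Ctrl, 39.2, 41.2 and 32.6 in Ctrl+IGF1, 37.4, 46.7 and 45.8 in TMEM216 and 51.5, 53.7 and 50.1 in TMEM216+IGF1. The TMEM216+IGF1 libraries were again the 3 highest, and Ctrl+IGF1 replicate 3 was the lowest. Averaged over IGF1, PFKFB3 rose by 0.30 with TMEM216 (SE 0.074, limma adjusted p = 0.0379). Within IGF1 the difference was 0.45 (SE 0.11, limma adjusted p = 0.0558), and without IGF1 it was 0.15. The averaged call was lost in 10 of 18 alternatives, with adjusted p from 0.00515 to 0.104. Single removals of 9 libraries ended it, namely each Ctrl and each TMEM216+IGF1 library, Ctrl+IGF1 replicate 1, and TMEM216 replicates 2 and 3, with log2 changes between 0.25 and 0.35 over all single removals. Conversely, PFKFB3 passed within IGF1 under both other scalings and without Ctrl+IGF1 replicate 2 or TMEM216 replicate 1 (adjusted p from 0.0228 to 0.211 over the 19 alternatives). PFKFB4 stood at 31.9 ± 4.60 TPM in Ctrl, 30.8 ± 1.05 in Ctrl+IGF1, 31.4 ± 4.24 in TMEM216 and 33.7 ± 3.51 in TMEM216+IGF1, and its group means were close.

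PDK1 encodes a kinase that shuts pyruvate out of the mitochondrial citric acid cycle. It averaged 5.09 ± 1.42 TPM in Ctrl, 5.47 ± 0.569 in Ctrl+IGF1, 5.90 ± 0.226 in TMEM216 and 6.65 ± 1.23 in TMEM216+IGF1. Ctrl replicate 1 at 3.68 TPM and replicate 2 at 6.52 TPM spanned most of the range, and no comparison of PDK1 passed.

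SLC2A1 and SLC2A3 encode the glucose transporters GLUT1 and GLUT3, and SLC16A3 encodes the lactate exporter MCT4. Transport itself was not measured. SLC2A1 averaged 185 ± 4.68 TPM in Ctrl, 174 ± 17.6 in Ctrl+IGF1, 173 ± 12.1 in TMEM216 and 168 ± 8.42 in TMEM216+IGF1, and it made up 86.4% to 90.5% of the SLC2A1 and SLC2A3 sum. SLC2A3 read 24.5, 25.4 and 25.1 TPM in Ctrl, 20.9, 23.9 and 17.4 in Ctrl+IGF1, 16.6, 20.4 and 21.7 in TMEM216 and 26.3, 26.1 and 22.3 in TMEM216+IGF1. Without IGF1 its 3 TMEM216 libraries lay below the 3 Ctrl libraries, by a log2 change of -0.35 (SE 0.13, limma adjusted p = 0.249), which was -0.24 without TMEM216 replicate 1. IGF1 went with lower values in the Ctrl population and higher values in the TMEM216 population, and neither difference passed. SLC16A3 averaged 332 ± 9.27 TPM in Ctrl, 338 ± 20.5 in Ctrl+IGF1, 339 ± 19.2 in TMEM216 and 387 ± 16.2 in TMEM216+IGF1, and its 3 TMEM216+IGF1 libraries were the highest of the 12. That difference from Ctrl+IGF1 was 0.20 (SE 0.068, limma adjusted p = 0.193) and did not pass.

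HIF1A encodes the oxygen-regulated subunit of HIF-1, and EGLN1 and EGLN3 encode prolyl hydroxylases that mark it for degradation. Regulation of this subunit is mainly at the protein level, which was not measured. HIF1A read 216, 218 and 223 TPM in Ctrl, 214, 254 and 169 in Ctrl+IGF1, 164, 210.3 and 276 in TMEM216 and 280.0, 316 and 237 in TMEM216+IGF1. The TMEM216 libraries ranged from the lowest value of all to above every Ctrl library, and no comparison of HIF1A passed the threshold. EGLN3, itself a HIF target, read 2.38, 1.33 and 1.99 TPM in Ctrl, 1.92, 1.77 and 1.74 in Ctrl+IGF1, 2.50, 2.50 and 2.44 in TMEM216 and 2.89, 2.79 and 2.94 in TMEM216+IGF1. All 6 TMEM216 libraries of EGLN3 exceeded all 6 Ctrl libraries, and the averaged difference was 0.37 (SE 0.10, limma adjusted p = 0.0548). It did not pass in the main fit, but did with no filter on low values, with median-of-ratios scaling, with quantile normalization and without Ctrl replicate 1. EGLN1 averaged 37.3 ± 1.26 TPM in Ctrl, 32.0 ± 7.56 in Ctrl+IGF1, 39.6 ± 3.02 in TMEM216 and 41.8 ± 3.92 in TMEM216+IGF1, with its lowest value in Ctrl+IGF1 replicate 3.

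Of the 6 members that passed in any comparison, 4 were among the 11 listed as hypoxia targets. Within IGF1 36.4% of those 11 passed, against 1.61% of all features, and averaged over IGF1 27.3%, against 5.22%. LDHA and PFKFB3, listed under other roles, are known HIF targets as well, and no test was made of the roles. CA12 (ENSG00000074410) read 10.4, 11.1 and 12.9 TPM in Ctrl, 10.8, 12.4 and 8.29 in Ctrl+IGF1, 14.1, 14.7 and 18.0 in TMEM216 and 19.1, 20.4 and 20.0 in TMEM216+IGF1. Every TMEM216 library lay above every Ctrl library, with or without IGF1, and the TMEM216+IGF1 libraries were the 3 highest. With IGF1 present CA12 rose by 0.87 on the log2 scale (SE 0.14, limma adjusted p = 0.00775). Averaged over IGF1 the rise was 0.64 (SE 0.098, limma adjusted p = 0.00312), and this call held in all 18 alternatives. The call within IGF1 was lost in 1 of 19, the fit of the 6 libraries compared alone (adjusted p = 0.0542, range over the 19 from 0.00174 to 0.0542). Without IGF1 the difference was 0.41 (SE 0.14, limma adjusted p = 0.208), which passed under quantile normalization alone (adjusted p = 0.0395, range over 19 alternatives from 0.0395 to 0.494). Of the 37 genes, only CA12 and EGLN3 had all 6 TMEM216 libraries above all 6 Ctrl libraries (5.41% of members), against 1.97% of all features tested, and no member had them all below (2.42% of all features).

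NDRG1 (ENSG00000104419) read 32.0, 31.5 and 32.2 TPM in Ctrl, 30.7, 33.7 and 26.7 in Ctrl+IGF1, 26.4, 39.7 and 44.5 in TMEM216 and 52.7, 57.7 and 50.9 in TMEM216+IGF1. Its TMEM216+IGF1 libraries were the 3 highest, whereas the TMEM216 libraries without IGF1 straddled the Ctrl values, with replicate 1 the lowest of the 12. NDRG1 rose by 0.81 within IGF1 (SE 0.16, limma adjusted p = 0.0236) and by 0.49 averaged over IGF1 (SE 0.11, limma adjusted p = 0.0242). The call within IGF1 was lost on removing Ctrl+IGF1 replicate 1 or 3 or any 1 of the TMEM216+IGF1 libraries (log2 changes 0.72 to 0.88 over all single removals, adjusted p 0.00142 to 0.114 over 19 alternatives). The averaged call was lost on removing any 1 Ctrl library, Ctrl+IGF1 replicate 1, TMEM216 replicate 2, or TMEM216+IGF1 replicate 1 or 2 (log2 changes 0.41 to 0.60, adjusted p 0.000604 to 0.0678 over 18).

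KDM3A (ENSG00000115548) read 31.9, 33.2 and 32.6 TPM in Ctrl, 29.1, 25.1 and 26.9 in Ctrl+IGF1, 30.5, 29.2 and 32.4 in TMEM216 and 35.1, 37.8 and 36.0 in TMEM216+IGF1. The TMEM216+IGF1 libraries were the 3 highest of the 12, and the Ctrl+IGF1 libraries the 3 lowest, with replicate 1 level with TMEM216 replicate 2. Within IGF1 KDM3A rose by 0.41 (SE 0.078, limma adjusted p = 0.0215), while without IGF1 the difference was -0.08. The call was lost in 7 of 19 alternatives, with adjusted p from 0.0182 to 0.154. Among these were both other scalings, the 6 libraries alone, and the removal of any 1 TMEM216+IGF1 library, and the log2 change stayed between 0.36 and 0.47 over all single removals. Averaged over IGF1 the difference was 0.17 (SE 0.055, limma adjusted p = 0.114).

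ADM moved in the opposite direction. ADM (ENSG00000148926) read 196, 194 and 203 TPM in Ctrl, 198, 185 and 182 in Ctrl+IGF1, 205, 194 and 173 in TMEM216 and 141, 139 and 149.7 in TMEM216+IGF1. The 3 TMEM216+IGF1 libraries were the lowest of the 12, below all others by more than 20 TPM. Within IGF1 ADM fell by 0.39 with TMEM216 (SE 0.073, limma adjusted p = 0.0208), and averaged over IGF1 it fell by 0.22 (SE 0.052, limma adjusted p = 0.0299). Without IGF1 the TMEM216 libraries, at 173 to 205 TPM, overlapped the Ctrl libraries, at 194 to 203 TPM, and ADM did not pass. The call within IGF1 was lost without Ctrl+IGF1 replicate 1, without TMEM216+IGF1 replicate 1 or 2, and in the 6 libraries alone (log2 changes -0.42 to -0.35 over single removals, adjusted p 0.00887 to 0.109 over 19 alternatives). Averaged, it was lost in 8 of 18 (adjusted p 0.00967 to 0.0869), among them without any 1 Ctrl library, Ctrl+IGF1 replicate 1, TMEM216 replicate 2, or TMEM216+IGF1 replicate 1 or 2 (log2 changes -0.25 to -0.19).

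VEGFA, which encodes the main angiogenic factor, read 305, 313 and 337 TPM in Ctrl, 365, 403 and 268 in Ctrl+IGF1, 219, 282 and 247 in TMEM216 and 298, 296 and 309 in TMEM216+IGF1. Without IGF1 its TMEM216 libraries were below its Ctrl libraries, with a log2 change of -0.36 (SE 0.13, limma adjusted p = 0.255). This change was -0.27 without TMEM216 replicate 1. Averaged over IGF1, VEGFA was also lower with TMEM216, at a mean of 275 TPM against 332 TPM in Ctrl, which did not pass. It passed under median-of-ratios scaling, without Ctrl+IGF1 replicate 3, and without that library and TMEM216 replicate 1 together. CA9, a carbonic anhydrase gene often used as a hypoxia marker, read 0.766, 0.407 and 0.500 TPM in Ctrl, 1.10, 1.90 and 1.46 in Ctrl+IGF1, 0.484, 0.830 and 1.49 in TMEM216 and 2.47, 1.76 and 3.69 in TMEM216+IGF1. It was under 1 TPM in 5 of the 12 libraries, so it passed the filter through the others, and the scale understates its change. Averaged over both populations IGF1 went with a difference of 0.79 in CA9 (SE 0.17, limma adjusted p = 0.235), which was 1.37 with a pseudocount of 0.1. All 3 libraries with IGF1 lay above the 3 without in each population.

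No comparison of the other hypoxia targets passed. BNIP3 and BNIP3L encode receptors for the removal of mitochondria. BNIP3 averaged 165 ± 8.52 TPM in Ctrl, 162 ± 6.44 in Ctrl+IGF1, 167 ± 2.55 in TMEM216 and 179.7 ± 7.15 in TMEM216+IGF1, and BNIP3L averaged 72.4 ± 1.03 TPM in Ctrl, 61.1 ± 4.36 in Ctrl+IGF1, 65.2 ± 6.42 in TMEM216 and 65.3 ± 6.35 in TMEM216+IGF1. P4HA1 and P4HA2 encode catalytic subunits of collagen prolyl 4-hydroxylase. P4HA1 averaged 71.0 ± 2.58 TPM in Ctrl, 71.3 ± 14.2 in Ctrl+IGF1, 76.6 ± 11.4 in TMEM216 and 93.4 ± 7.78 in TMEM216+IGF1, with a difference of 0.40 within IGF1 (SE 0.14, limma adjusted p = 0.196), while P4HA2 averaged 28.8 ± 3.33 TPM in Ctrl, 29.2 ± 3.50 in Ctrl+IGF1, 28.4 ± 4.35 in TMEM216 and 30.2 ± 1.93 in TMEM216+IGF1. ANKRD37, a HIF target, averaged 4.02 ± 0.743 TPM in Ctrl, 4.94 ± 0.953 in Ctrl+IGF1, 4.68 ± 0.258 in TMEM216 and 5.26 ± 0.920 in TMEM216+IGF1.

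**Figure D2:**
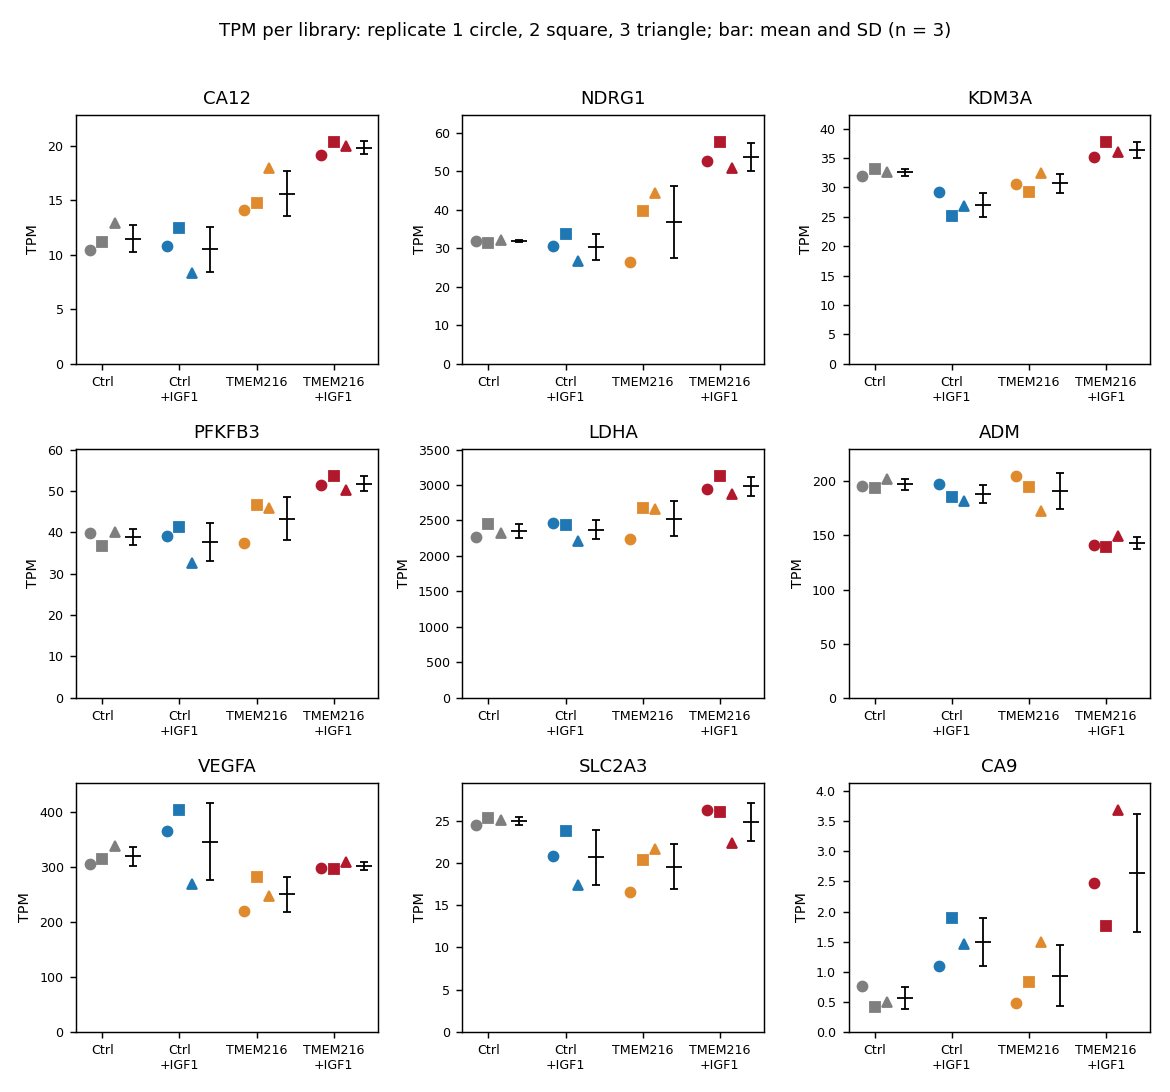
TPM (vertical axes from 0, separate for each gene) of 9 genes in the 12 libraries, with circles, squares and triangles for replicates 1, 2 and 3 and a black bar for the mean and SD of each group. CA12, NDRG1, PFKFB3 and LDHA are highest and ADM is lowest in the 3 TMEM216+IGF1 libraries, and Ctrl+IGF1 replicate 3 lies at the bottom of its group for 7 of the 9 genes.

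The sequences before the starts of 5 of the 6 members that passed are shown because these genes differed with TMEM216 and are known HIF targets, and HIF binds the core letters ACGTG or GCGTG. The sequences are the 250 bases before an annotated start, 5′ to 3′ on the gene's strand, from RefSeq on GRCh38.p14. Capitals mark every match to ACGTG or GCGTG on either strand, so CACGT and CACGC are matches too, and CACGTG holds overlapping matches. For KDM3A and LDHA the first of 2 annotated starts is shown, and for PFKFB3 the second, which held more matches.
CA12, chr15:63381847-63382096, minus strand: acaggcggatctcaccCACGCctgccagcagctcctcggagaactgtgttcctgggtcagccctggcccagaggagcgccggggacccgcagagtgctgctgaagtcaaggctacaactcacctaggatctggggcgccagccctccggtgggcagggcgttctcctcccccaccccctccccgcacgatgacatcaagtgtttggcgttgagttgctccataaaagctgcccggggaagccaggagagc
KDM3A, chr2:86441121-86441370, plus strand: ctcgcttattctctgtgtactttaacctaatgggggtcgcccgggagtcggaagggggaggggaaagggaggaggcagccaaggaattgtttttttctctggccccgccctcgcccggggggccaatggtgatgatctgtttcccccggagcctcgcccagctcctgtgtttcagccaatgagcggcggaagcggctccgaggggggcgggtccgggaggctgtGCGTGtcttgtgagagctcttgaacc
ADM, chr11:10304823-10305072, plus strand: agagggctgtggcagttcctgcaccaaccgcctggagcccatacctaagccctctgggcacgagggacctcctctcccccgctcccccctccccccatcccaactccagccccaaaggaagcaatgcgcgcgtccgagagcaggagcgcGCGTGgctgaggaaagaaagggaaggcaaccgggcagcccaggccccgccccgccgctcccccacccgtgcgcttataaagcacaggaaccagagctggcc
LDHA, chr11:18394313-18394562, plus strand: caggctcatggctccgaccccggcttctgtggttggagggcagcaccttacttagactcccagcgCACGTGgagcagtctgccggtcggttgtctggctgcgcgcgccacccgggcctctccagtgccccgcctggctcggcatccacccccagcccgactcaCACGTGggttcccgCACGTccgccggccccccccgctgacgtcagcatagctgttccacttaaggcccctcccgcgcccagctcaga
PFKFB3, chr10:6202682-6202931, plus strand: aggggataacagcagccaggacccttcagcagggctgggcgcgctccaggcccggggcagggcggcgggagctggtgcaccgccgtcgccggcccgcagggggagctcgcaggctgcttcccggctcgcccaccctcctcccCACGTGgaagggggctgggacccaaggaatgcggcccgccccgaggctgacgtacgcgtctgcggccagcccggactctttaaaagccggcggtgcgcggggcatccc

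CA12, KDM3A and ADM each held 1 match in these windows, the PFKFB3 window held 2 that overlap in 1 CACGTG, and the LDHA window held 5, of which 4 overlap in pairs. The match in CA12 began 234 bases before the start and that in ADM 101 bases before it. Any tie between matches and the direction of change was not tested. Windows on chr8 were left out, for members and for all genes alike. Among the rest, RefSeq windows were found for 33 of the 37 members, 61 windows in all. ACGTG or its reverse complement was in 36.1% of these windows, against 18.5% of the 35116 windows of all genes searched. GCGTG was in 32.8% and 32.2%, and either was in 59.0% and 43.2%. Counted by gene over all its windows, ACGTG was in 57.6% of the 33 members and 21.7% of all genes, GCGTG in 51.5% and 36.2%, and either in 81.8% and 47.4%. All genes searched were 27305, so members had more windows per gene, which by itself raises a share counted over any window. The members were also picked by name as glycolysis and hypoxia genes, so these shares are no test of HIF control. Median GC content was 68.4% in the members' windows and 58.0% in all, and its part in these shares was not tested. A match is a description of the letters and does not show binding.

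For TMEM216 against Ctrl without IGF1, none of the 37 members passed, where limma called 1.09% of all features tested. At an unadjusted p under 0.05 there were 4 members (10.8%) against 13.2% of all features. The 5 members with the smallest p were CA12, SLC2A3, GAPDH and VEGFA, with values given above, and EGLN3, at 0.28 (SE 0.14, limma adjusted p = 0.438), which was 0.13 without Ctrl replicate 2. CA12, GAPDH and EGLN3 were higher without overlap of the libraries (8.11%, against 6.3% of all features), and SLC2A3 and VEGFA were lower (5.41%, against 15.5%). The median log2 change was 0.04 over the members and -0.05 over all features tested. It was 0.0040 without TMEM216 replicate 2, 0.12 without TMEM216 replicate 1, 0.067 without Ctrl replicate 3 and 0.098 after median-of-ratios scaling. Removing Ctrl+IGF1 replicate 3 and TMEM216 replicate 1 together gave 1 called member, NDRG1 (2.70%), where 2.20% of all features were called. Of the calls over all features 14.0% were higher, and this share was 32.4% after median-of-ratios scaling and 32.8% after quantile normalization.

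With IGF1 present, TMEM216 cells differed in 4 members, of which CA12, NDRG1 and KDM3A were higher and ADM lower. Those are 10.8% of the members, where 1.61% of all features tested were called. By direction, 8.11% of members were called higher, against 0.918% of all features, and 2.70% lower, against 0.696%. The members were chosen with earlier results of these data known, so these shares are no test of the set. Of the 37, 33 had a positive log2 change, with a median of 0.18 against 0.05 over all features. Without Ctrl+IGF1 replicate 3 these medians were 0.10 and -0.0056, and without Ctrl+IGF1 replicate 2 they were 0.26 and 0.092. The libraries did not overlap for 13 members in the higher direction (35.1%, against 12% of all features), among them PKM, SLC16A3, BNIP3 and GAPDH, and for ADM in the lower direction (2.70%, against 7.69%). Leaving out single libraries gave 1 called member without TMEM216+IGF1 replicate 1 or 2, where 0.643% and 0.673% of all features were called. It gave 2 without replicate 3 of that group or Ctrl+IGF1 replicate 1 (0.895% and 0.696% of all features), and 7 without Ctrl+IGF1 replicate 2 (3.54%). Only the 6 libraries compared, fitted alone, gave 1 (0.375%). Leaving out Ctrl+IGF1 replicate 3 and TMEM216 replicate 1 together gave 7, where 1.82% of all features were called. To the same 4 genes this added LDHA and PFKFB3, which were higher, and VEGFA, which was lower.

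**Figure D3:**
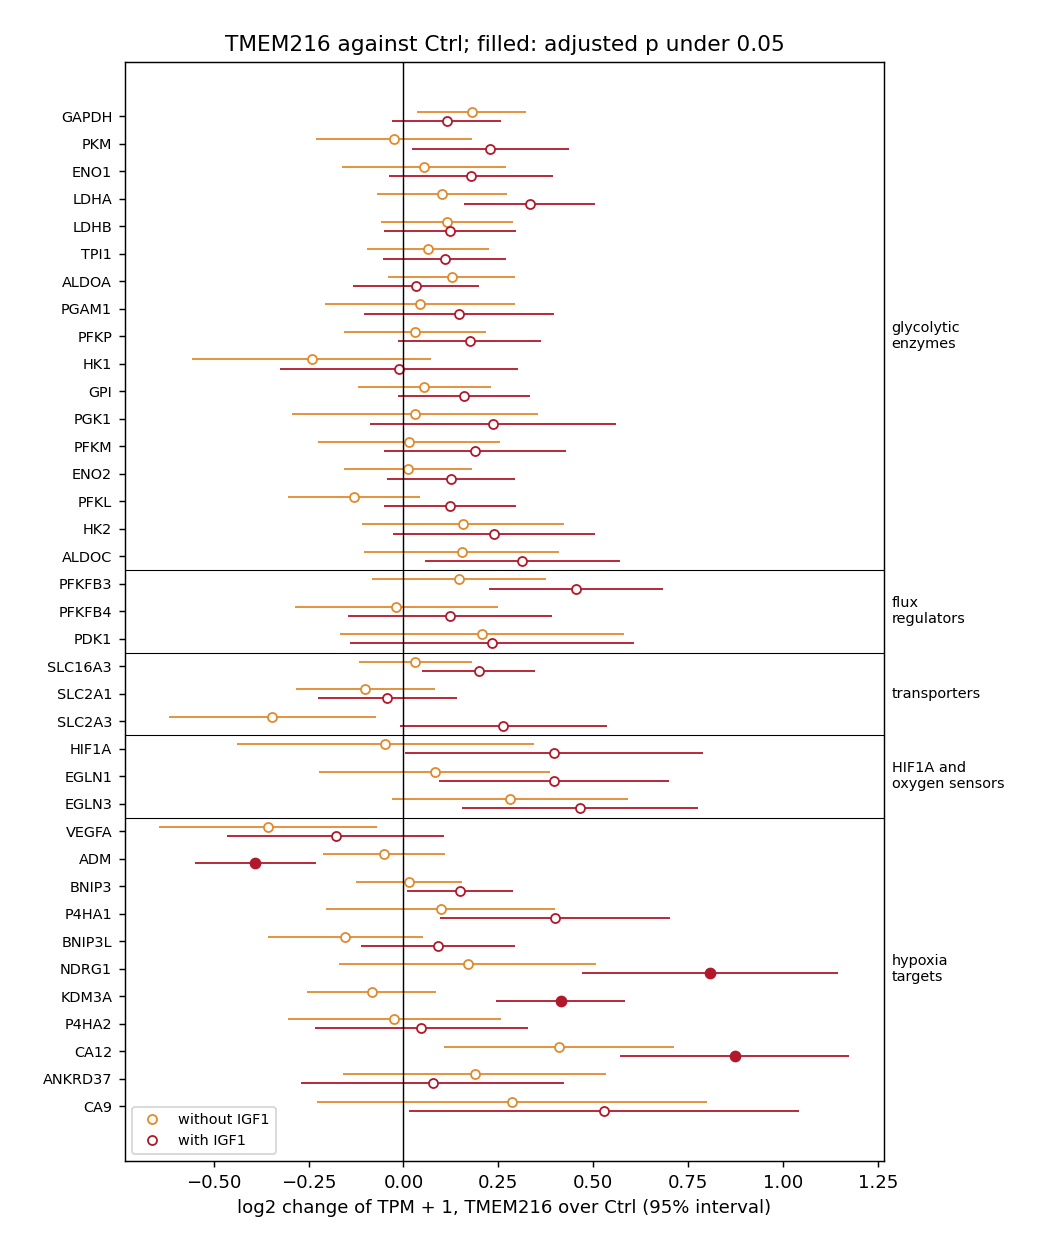
Log2 change of TPM + 1 between TMEM216 and Ctrl for each gene, without IGF1 (orange) and with IGF1 (red), with 95% intervals from limma and filled points for an adjusted p under 0.05. The filled points are CA12, NDRG1 and KDM3A to the right of 0 and ADM to the left, all with IGF1.

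Averaged over IGF1, TMEM216 went with higher CA12, NDRG1, PFKFB3 and LDHA and lower ADM. These 5 are 13.5% of the members, where 5.22% of all features were called. Higher calls made up 10.8% of members, against 2% of all features, and lower calls 2.70%, against 3.21%. Given how the members were chosen, these shares too are no test of the set. The members' median was 0.11, and that of all features was -0.00054. This comparison uses the same libraries as the 2 before it and adds no separate samples. Leaving out single libraries gave 1 to 6 called members, with 1 left without Ctrl replicate 2 or 3, Ctrl+IGF1 replicate 1, TMEM216 replicate 2 or TMEM216+IGF1 replicate 1 or 2, 2 without Ctrl replicate 1, and 3 without TMEM216 replicate 3 or TMEM216+IGF1 replicate 3. Over these fits the share of all features called ran from 3.00% without Ctrl replicate 2 to 6.93% without Ctrl+IGF1 replicate 2. Leaving out Ctrl+IGF1 replicate 3 and TMEM216 replicate 1 together gave 7, with VEGFA (lower) and GAPDH (higher) added, where 8.12% of all features were called.

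IGF1 moved no member past the threshold. In the Ctrl population limma called 0 of 37, where 0.0306% of all features were called, and 3 members (8.11%) had an unadjusted p under 0.05 against 6.89% of all features. KDM3A, CA9, BNIP3L, SLC2A3 and PFKL had the smallest p, with log2 changes of -0.26, 0.67, -0.24, -0.27 and -0.15, each at a limma adjusted p of 0.673. Without Ctrl+IGF1 replicate 3, SLC2A3 was at -0.16 and PFKL at -0.08, and BNIP3L was at -0.15 and PFKL at -0.06 after median-of-ratios scaling. CA9 and ALDOA were higher without overlap (5.41%, against 2.72% of all features) and KDM3A, BNIP3L, SLC2A3 and PFKL lower (10.8%, against 11.8%). The median over members was -0.06 and over all features -0.09. Ctrl+IGF1 replicate 3 held 32 of the 37 members below their Ctrl mean, with a median of -0.22, whereas the median of all features there was -0.21. Without that library and TMEM216 replicate 1 the members' median in this comparison was 0.04, and with median-of-ratios scaling it was 0.03, so its sign turned under both.

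In the TMEM216 population IGF1 again gave 0 called members, where 0.0153% of all features were called. At an unadjusted p under 0.05 there were 9 members (24.3%), against 4.77% of all features. The smallest p belonged to ADM, with a log2 change of -0.41 (SE 0.073, limma adjusted p = 0.166), CA9 with 0.91, NDRG1 with 0.56, LDHA with 0.24 and KDM3A with 0.24. In all, 35 of 37 changes were positive, with a median of 0.11 against 0.02 over all features. Without TMEM216 replicate 1, with or without Ctrl+IGF1 replicate 3, 28 were positive, with medians of 0.094 and -0.0027, and NDRG1 was at 0.35 and LDHA at 0.16. The libraries did not overlap for 13 members in the higher direction (35.1%, against 6.56% of all features) and for ADM in the lower (2.70%, against 3.69%). This comparison shares the TMEM216+IGF1 libraries with that of TMEM216 within IGF1. Averaged over both populations IGF1 gave 0 called members, where 0.0536% of all features were called, and 5 members had an unadjusted p under 0.05 (13.5%, against 5.88%). CA9, ADM, LDHA, SLC16A3 and NDRG1 led, at 0.79, -0.24, 0.13, 0.11 and 0.24, and NDRG1 was at 0.135 without TMEM216 replicate 1. No member had its 6 libraries with IGF1 wholly above or below the 6 without (0.0383% and 0.168% of all features did).

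The interaction, the change with IGF1 in TMEM216 cells minus that in Ctrl cells, tests whether IGF1 acted differently in the 2 populations. None of the members passed, where 0.0153% of all features did (0.00765% higher and 0.00765% lower), and 6 had an unadjusted p under 0.05 (16.2%, against 5.38%). KDM3A led with 0.50 (SE 0.11), followed by SLC2A3 with 0.61 (SE 0.18), ADM with -0.34 (SE 0.10), NDRG1 with 0.64 (SE 0.22) and CA12 with 0.46 (SE 0.20), each at a limma adjusted p of 0.754. The median over members was 0.17, but the median over all features was itself 0.11. After median-of-ratios scaling the medians were 0.06 and 0.0040. Without both libraries that stood apart they were 0.05 and 0.02, with SLC2A3 at 0.39, NDRG1 at 0.34 and CA12 at 0.25, and NDRG1 was at 0.42 without TMEM216 replicate 1 alone. The calls made within IGF1 and not without it are therefore not shown to differ between the IGF1 conditions.

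**Figure D4:**
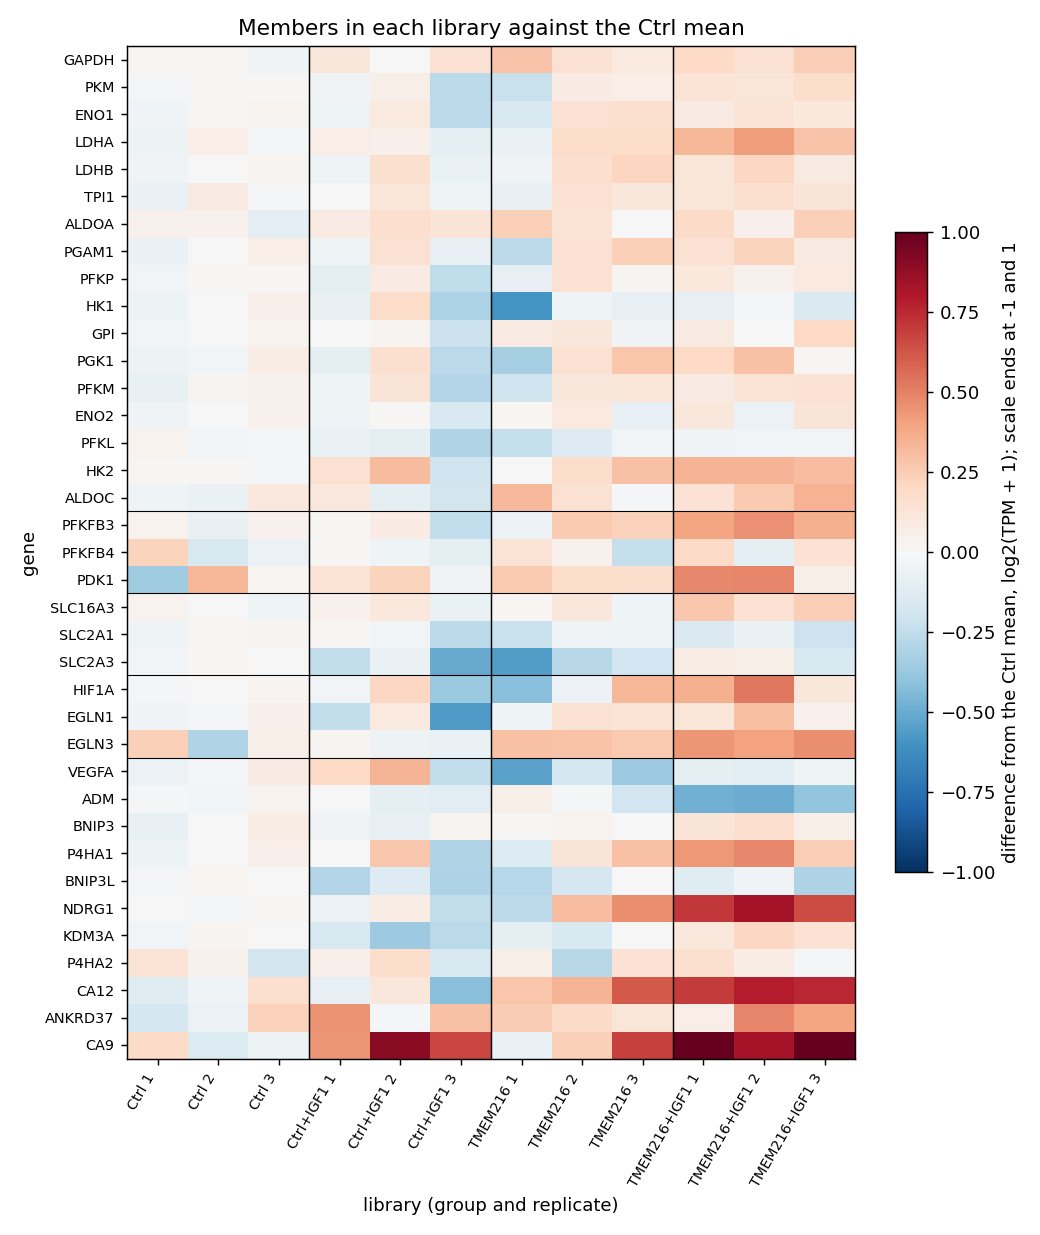
Difference of log2(TPM + 1) from the Ctrl mean for each gene (rows, grouped by role) in each library (columns), with red above and blue below and colours held at -1 and 1. The 3 TMEM216+IGF1 columns are mostly red, Ctrl+IGF1 replicate 3 has 32 of 37 genes below the Ctrl mean, Ctrl replicate 1 has 26 and TMEM216 replicate 1 has 23, and CA9, which reaches 1.6, runs past the scale.

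Among genes of neighbouring pathway steps, few were called with TMEM216, and the only one called higher was TKT. Of 41 further genes of glucose metabolism 34 were tested. Averaged over IGF1, 1 rose and 3 fell with TMEM216 (2.94% and 8.82%), against 2% and 3.21% of all features. TKT, the transketolase gene, averaged 304 ± 6.05 TPM in Ctrl, 315 ± 25.2 in Ctrl+IGF1, 384 ± 34.2 in TMEM216 and 394 ± 17.4 in TMEM216+IGF1, a rise of 0.33 (SE 0.057, limma adjusted p = 0.00587). PCK2, the mitochondrial phosphoenolpyruvate carboxykinase gene, averaged 46.8 ± 1.85 TPM in Ctrl, 38.8 ± 2.36 in Ctrl+IGF1, 20.4 ± 0.963 in TMEM216 and 18.4 ± 0.0784 in TMEM216+IGF1, and fell by 1.10. SLC16A1, the MCT1 lactate transporter gene, averaged 3.04 ± 0.564 TPM in Ctrl, 2.64 ± 0.869 in Ctrl+IGF1, 1.25 ± 0.269 in TMEM216 and 0.747 ± 0.214 in TMEM216+IGF1, and fell by 0.94, while SLC16A3 did not pass. PYGL, the liver glycogen phosphorylase gene, fell by 0.19. The list's median was 0.04, against -0.00054 over all features. Within IGF1, PCK2 and SLC16A1 fell (5.88% of the list, against 0.696% of all features) and none rose (0.918% of all features), and without IGF1 only PCK2 was called (2.94% lower, against 0.941%).

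Of 56 further hypoxia genes 51 were tested, and averaged over IGF1 4 rose and 7 fell, with a median of 0.01. Those are 7.84% and 13.7% of the list, against 2% and 3.21% of all features. PLAUR, the urokinase receptor gene, averaged 309.9 ± 14.3 TPM in Ctrl, 309 ± 16.6 in Ctrl+IGF1, 367 ± 27.0 in TMEM216 and 395 ± 9.45 in TMEM216+IGF1, a rise of 0.30 (SE 0.050, limma adjusted p = 0.00539), and FUT11 rose by 0.32. DUSP1, a MAP kinase phosphatase gene, averaged 97.7 ± 0.866 TPM in Ctrl, 89.3 ± 10.5 in Ctrl+IGF1, 55.6 ± 6.31 in TMEM216 and 47.2 ± 2.00 in TMEM216+IGF1, and fell by 0.85. DDIT4, an inhibitor of mTORC1, averaged 174 ± 9.01 TPM in Ctrl, 215 ± 9.22 in Ctrl+IGF1, 133 ± 10.7 in TMEM216 and 169.9 ± 8.89 in TMEM216+IGF1, and fell by 0.36, and VLDLR and LOX fell by 0.52 and 0.33. Without IGF1 the list had 0 higher and 4 lower calls, which were DUSP1, LOX, VLDLR and DDIT4 (7.84%, against 0.941% of all features). Within IGF1 it had PLAUR higher and DUSP1 lower (1.96% each, against 0.918% and 0.696%). Neither list had a call for IGF1 or for the interaction. Hypoxia genes thus lay on both sides with TMEM216, in the wider list as among the 37.

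Some values are uncertain because of how reads may have been assigned. By GENCODE 29, 12 of the 37 genes overlap another tested gene, 5 on the same strand and 8 on the opposite strand. EGLN3, ALDOA, ENO2, PGK1 and PFKFB4 do so on the same strand. CA9, SLC16A3, PFKM, TPI1, BNIP3L, P4HA2, ANKRD37 and again PGK1 do so on the opposite strand. Pseudogenes named after a member exist for 15 of the 37, with 62 for GAPDH, 39 for BNIP3 and 6 for LDHA, and reads could be shared with them.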

How the data were processed

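The RNA behind 12 MDA-231-LM2 libraries was sequenced after TRIzol extraction and an Illumina TruSeq RNA preparation, per the labels' protocols. HISAT2, StringTie and RSEM were used, without stated versions, per the submitters' processing notes. Neither genome build nor annotation is named there. The authors deposited TPM for 21574 features, so read depth is unknown and counting intervals cannot be computed.

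From these, log2(TPM + 1) was fitted without further scaling for the 13071 features with at least 1 TPM in 3 or more libraries, with 4 group means and all 12 libraries, by limma 3.58.1 in R 4.3.3 (tables were read with data.table, version 1.17.8), using moderated variances with a mean-variance trend. Tests were two-sided, p was adjusted by Benjamini-Hochberg over all 13071 features, and 0.05 was the threshold. Each SE is the moderated one from limma, and log2 changes on this scale understate those of low genes. The fitting script was tested on simulated data. The members and the gene lists were chosen with earlier results of these data known. An item of the lists is not reported here.

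Named were members past the threshold, the 5 members with the smallest p in each comparison, a set of pathway genes given by role, and up to 6 called genes of each other list with the smallest p. Sequences came from RefSeq (GRCh38.p14), and overlaps from GENCODE 29, whose build may differ from the one used upstream. The alternatives were a pseudocount of 0.1, no filter, median-of-ratios scaling, quantile normalization, a block for the replicate number, a fit of the 6 libraries in a comparison alone, each library left out, and 2 libraries left out together, the last chosen after the data were seen. Python 3.11.15 with pandas 2.3.3 and matplotlib 3.10.9 made the summaries and figures.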

Additional observations from a re-analysis of the deposited data

Results flagged for a closer look

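SLC2A3, the GLUT3 gene, was lower with IGF1 in every Ctrl library and higher in every TMEM216 library than in the libraries without IGF1. The change with IGF1 in TMEM216 cells minus that in Ctrl cells was 0.6094 on the log2 scale (SE 0.1771), and it did not pass (limma adjusted p = 0.754).

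KDM3A, the histone demethylase gene, had the same pattern, with a difference between the populations of 0.4983 (SE 0.1108), which did not pass either (limma adjusted p = 0.754). Both genes were chosen here because their libraries moved in opposite directions in the 2 populations. Ctrl+IGF1 replicate 3 held the lowest Ctrl+IGF1 value of SLC2A3 but not of KDM3A. TMEM216 replicate 1 held the lowest SLC2A3 value of all libraries. Without these 2 libraries together the SLC2A3 difference was 0.39 and that of KDM3A 0.49.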

How the results depend on the processing

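Without read counts the precision of low genes such as CA9 cannot be given, and 3 libraries a group limit the calls. For TMEM216 without IGF1 the count of called members went from 0 to 1 with quantile normalization and to 1 when Ctrl+IGF1 replicate 3 was dropped together with TMEM216 replicate 1. With IGF1 it went from 4 to 1 when only the 6 libraries compared were fitted, to 7 without those 2 libraries together, and to between 1 and 7 when each library was left out. Averaged over IGF1 it went from 5 to between 1 and 6 when each library was left out. The median of the members for IGF1 in Ctrl cells, -0.06, was 0.037 without those 2 libraries together and -0.10 to 0.037 when each library was left out. That of the interaction, 0.17, was 0.060 with median-of-ratios scaling and 0.048 without the 2 libraries together. Among the 5 members with the smallest p in each comparison, none changed direction in the alternatives run.

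Replicate numbers are shared by the groups. The deviations of same-numbered libraries correlated between -0.286 and 0.165 over 18 pairs, with 4 pairs over 0.1. With 3 libraries a group, such correlations cannot show whether the numbers pair the samples. With the replicate block 2 members were called for TMEM216 averaged over IGF1 (3.82% of all features) and 3 with IGF1 (1.07%), where KDM3A was lost (limma adjusted p = 0.0607, range over its 19 alternatives 0.0182 to 0.154). The causes were not tested.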
